A study of Drosophila melanogaster with 10 samples.

Results

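Folate one-carbon and glycine cleavage enzymes were followed in brain RNA of male flies on a high-protein and a low-protein diet. The set holds 9 genes, pug, Nmdmc, Shmt, CG3999, CG6415, CG7560, CG8665, Ts and Fpgs, of 11621 genes in the deposited table, and all 9 were found there by name. They were chosen by their difference between the diets in these same libraries, so their diet values are a description and carry no test. The HPLC group (5 libraries) came from flies fed protein and carbohydrate at 1 to 2, and the LPHC group (5 libraries) from flies fed them at 0 to 1, that is carbohydrate without protein. Both diets held 360 g per L, and all flies were males 4 to 7 days old of the genotype Wild-type (W1118), with no other allele or agent. Per the series design, taste responses to sucrose were higher after HPLC and lower after LPHC. Nothing in the labels tells if replicate libraries came from separate pools of flies, so spread and p-values measure differences between libraries, which may be technical.

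Folate carries single carbon groups between reactions. Serine hydroxymethyltransferase moves a carbon from serine to tetrahydrofolate and leaves glycine, and the mitochondrial glycine cleavage system takes a second carbon from glycine. The loaded folates are then oxidised to formyl forms that serve purine synthesis, reduced to the methyl form that serves methionine synthesis, or used to make thymidylate for DNA. In insects much of this metabolism takes place in the fat body, a tissue that works as liver and adipose store.

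The libraries held 21217792 to 33863333 reads on HPLC and 19834344 to 38402635 on LPHC. Values are normalised read counts, which are reads divided by a size factor for each library, and errors are SD over 5 libraries unless called SE. Defining neuron markers were abundant, with elav, a neuronal RNA-binding protein, at 3962 normalised reads on HPLC and 4647 on LPHC. The photoreceptor opsin ninaE averaged 1301169 on HPLC and 1595426 on LPHC, so the tissue labelled brain included RNA of the eye. All 15 genes of a fat body marker list were in the table. Their summed level ran from 156360 to 198036 in the HPLC libraries and from 32027 to 42298 in the LPHC libraries (log2 difference 2.23, exact two-sided permutation p = 0.00794, the smallest that 252 assignments allow, adjusted p = 0.0111 over 7 marker lists). The marker lists were chosen with earlier results of these data known, so their p-values are a description. Of the 12 fat body markers that were tested, 12 were called higher, beside 22.1% of all tested genes. The listed markers Fbp1, Fbp2 and Lsp1gamma were near 0 in both diets and too low to be tested. In bulk RNA more cells of a type and more RNA per cell cannot be told apart.

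On HPLC all 9 genes had a higher mean than on LPHC, from 1.56-fold for CG8665 to 35.4-fold for CG3999. A minimum mean of 10 normalised reads was set for the limma fit, which 8 genes reached and Ts, at 9.88, did not. All 8 were called higher and 5 of them had a log2 fold change of at least 2. In the same fit 22.1% of 9896 genes were called higher, 18.9% lower and 40.9% either way, and 2.15% were called with a log2 fold change of at least 2. Since the diet contrast chose the genes, nothing is read from the counts. For 8 of the 9 genes every HPLC library lay above every LPHC library, which held for 15.2% of all genes in the table, while 10.2% had every HPLC library below. CG8665 was the gene whose diets overlapped. Together the 9 genes took 0.145% ± 0.0170 of reads on HPLC and 0.0124% ± 0.000531 on LPHC (n = 5 each).

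**Figure D1:**
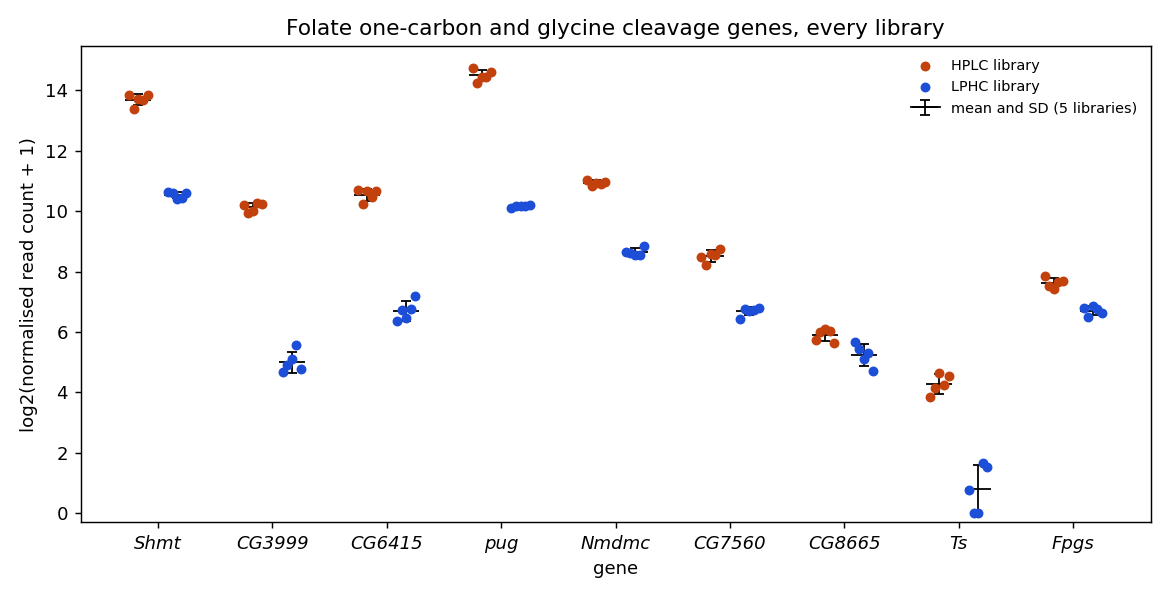
Level of each of the 9 genes in every library, as log2(normalised read count + 1) on the vertical axis, with HPLC libraries (orange) left of LPHC libraries (blue) and bars for the mean and SD of 5 libraries. The diets are apart for all genes but CG8665, and the distance is greatest for CG3999 (35.4-fold as a ratio of means) and least for CG8665 (1.56-fold).

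Shmt, the serine hydroxymethyltransferase that loads the folate pool, had 14850, 10711, 13434, 13308 and 14678 normalised reads in the HPLC libraries (replicates 1 to 5), against 1576, 1548, 1354, 1400 and 1551 in the LPHC libraries. The lowest HPLC library was 6.79 times the highest LPHC library. The means were 13396 ± 1656 on HPLC and 1486 ± 101 on LPHC, a ratio of 9.02. On the log2(value + 1) scale the fold change, HPLC minus LPHC, was 3.16 ± 0.08 (SE). Of the Shmt exons 4.88% overlap genes on the opposite strand, and the overlapping CG12236 stood at 1396 ± 91.4 on HPLC and 1545 ± 78.8 on LPHC.

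The glycine cleavage system is built from a P protein that decarboxylates glycine, a T protein that hands its carbon to folate, an H protein that carries the intermediate on a lipoyl arm, and an L protein that reoxidises that arm. CG3999, the counterpart of human glycine decarboxylase (P protein), had 1170, 991, 1025, 1233 and 1219 normalised reads on HPLC, against 24.3, 29.0, 33.5, 46.1 and 26.1 on LPHC. Its log2 fold change of 5.13 ± 0.14 (SE) ranked 15 among 9896 genes and was the highest of the set. On LPHC only 24 to 43 reads per library lay behind it, and its SD was 9.96% of the mean on HPLC and 27.4% on LPHC.

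CG6415, the counterpart of human aminomethyltransferase (T protein), had 1668, 1206, 1614, 1409 and 1639 normalised reads on HPLC, against 82.1, 105, 86.5, 108 and 146 on LPHC. The diets lay far apart here too, with means of 1507 ± 197 on HPLC and 106 ± 25.5 on LPHC and a log2 fold change of 3.84 ± 0.14 (SE). The 2 remaining subunits are not in the set and were tested. ppl, the H protein, averaged 1560 ± 164 on HPLC and 637 ± 27.9 on LPHC and was higher by 1.28 ± 0.07 (SE, limma adjusted p = 1.02e-10). CG7430, the dihydrolipoamide dehydrogenase that serves as L protein and is shared with other mitochondrial complexes, averaged 8094 ± 334 on HPLC and 7217 ± 333 on LPHC. Its log2 fold change was 0.17 ± 0.06 (SE, limma adjusted p = 0.0269). Over the alternatives its adjusted p ran from 0.00384 to 0.408. The call was lost under upper-quartile scaling (limma adjusted p = 0.408), quantile normalization (0.181) and without HPLC replicate 4 (0.0729), HPLC replicate 5 (0.0553), LPHC replicate 3 (0.0735) or LPHC replicate 4 (0.0592).

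The subunit RNAs can be set side by side per unit of length. Per kilobase of annotated exon, the means on HPLC were 353 ± 35.1 for CG3999, 1202 ± 157 for CG6415, 1734 ± 183 for ppl and 3594 ± 148 for CG7430. On LPHC they were 9.95 ± 2.72 for CG3999, 84.2 ± 20.3 for CG6415, 708 ± 31.0 for ppl and 3205 ± 148 for CG7430. The order of the 4 subunits was the same in both diets, with the P protein lowest and the L protein highest. The level of CG3999 relative to ppl was 0.204 ± 0.0192 on HPLC and 0.0141 ± 0.00423 on LPHC, and relative to CG6415 it was 0.296 ± 0.0374 on HPLC and 0.123 ± 0.0382 on LPHC. Las, the lipoic acid synthase that supplies the lipoyl arm, was not called (log2 fold change −0.11 ± 0.06 SE, limma adjusted p = 0.127, from 0.00152 to 0.809 over the alternatives). It was called lower under upper-quartile scaling (0.00442), quantile normalization (0.00152) and without HPLC replicate 3 (0.0437).

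Among the enzymes that interconvert loaded folates, pug, the cytosolic trifunctional enzyme that makes methenyl-, methylene- and formyltetrahydrofolate, had the highest level of the set on HPLC. Its libraries held 27305, 19223, 22392, 22360 and 24976 normalised reads on HPLC, against 1095, 1142, 1161, 1161 and 1176 on LPHC. The SD was 13.1% of the mean on HPLC and 2.78% on LPHC, so the LPHC libraries lay close together. The means of 23251 ± 3048 on HPLC and 1147 ± 31.8 on LPHC gave a ratio of 20.3 and a log2 fold change of 4.33 ± 0.08 (SE). By level, pug stood at rank 141 of 11621 genes on HPLC and at rank 4069 on LPHC.

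Nmdmc, the mitochondrial methylenetetrahydrofolate dehydrogenase and cyclohydrolase, had 2113, 1812, 1938, 1927 and 2022 normalised reads on HPLC, against 402, 395, 377, 371 and 465 on LPHC. Its lowest HPLC library was 3.90 times its highest LPHC library, and the log2 fold change was 2.29 ± 0.07 (SE). The cytosolic and the mitochondrial enzyme were apart in level on HPLC and close on LPHC: per kilobase of exon, pug was 5.14 ± 0.383 times Nmdmc on HPLC and 1.25 ± 0.109 times on LPHC.

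CG7560, the counterpart of human methylenetetrahydrofolate reductase, which commits carbon to methionine synthesis, had 360, 294, 385, 370 and 434 normalised reads on HPLC, against 86.2, 107, 103, 105 and 111 on LPHC. The groups did not overlap, and the log2 fold change was 1.83 ± 0.11 (SE). CG8665, the counterpart of human formyltetrahydrofolate dehydrogenase, which removes formyl groups as carbon dioxide, had the smallest ratio of the set. It had 52.0, 63.3, 67.7, 64.4 and 48.4 normalised reads on HPLC, against 50.1, 42.8, 33.5, 38.6 and 25.2 on LPHC. The lowest HPLC library lay below the highest LPHC library, and with 46 to 75 reads per library on HPLC and 24 to 72 on LPHC counting error is a large part of its spread. Its means were 59.2 ± 8.44 on HPLC and 38.0 ± 9.40 on LPHC, with a log2 fold change of 0.65 ± 0.18 (SE).

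Ts, the thymidylate synthase that makes the DNA base precursor from methylene folate, was nearly unread on LPHC. It had 13.2, 16.9, 24.0, 17.8 and 22.1 normalised reads on HPLC, against 0.695, 0, 0, 2.14 and 1.87 on LPHC, where the whole group held 5 reads. A library without a read allows up to 3 reads, which is 2.18 normalised reads in LPHC replicate 2 and 4.19 in LPHC replicate 3, both below the lowest HPLC value. The means were 18.8 ± 4.30 on HPLC and 0.941 ± 1.02 on LPHC, the LPHC mean resting on those 5 reads, and these floors cover counting error only. Of its exons 10.5% overlap the opposite-strand gene Rbp9, a neuronal RNA-binding protein at 40532 ± 2659 on HPLC and 47243 ± 4415 on LPHC, and the strand setting of the counting is not given in the sources used here.

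Fpgs, folylpolyglutamate synthase, adds the glutamate tail that keeps folates inside cells. It had 232, 185, 173, 199 and 205 normalised reads on HPLC, against 110, 89.3, 114, 107 and 98.0 on LPHC. The groups were apart by a smaller margin than those of the other non-overlapping genes, with the lowest HPLC library 1.51 times the highest LPHC library and a log2 fold change of 0.93 ± 0.11 (SE). An antisense RNA, asRNA:CR45621, is annotated over 62.7% of its exons, so its reads and those of Fpgs may not be separable.

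Levels of the 9 genes were ordered per kilobase of exon, since longer transcripts collect more reads. On HPLC pug (6679 ± 876) and Shmt (5320 ± 658) led, with overlapping libraries, and Nmdmc (1294 ± 74.1) and CG6415 (1202 ± 157) followed, also overlapping. CG3999 (353 ± 35.1) and CG7560 (333 ± 45.6) overlapped as well, and below them came Fpgs (93.6 ± 10.7), CG8665 (16.3 ± 2.33) and Ts (13.98 ± 3.19), the last pair overlapping. On LPHC the order began with Shmt (590 ± 40.3), pug (330 ± 9.15) and Nmdmc (265 ± 24.6), each apart from the next. It went on with CG7560 (92.6 ± 8.60) and CG6415 (84.2 ± 20.3), which overlapped, Fpgs (48.9 ± 4.75), CG8665 (10.5 ± 2.60) and CG3999 (9.95 ± 2.72), which overlapped, and Ts (0.699 ± 0.755). Shmt and pug thus traded places between diets, and the ratio of pug to Shmt was 1.26 ± 0.0549 on HPLC and 0.561 ± 0.0486 on LPHC.

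**Figure D2:**
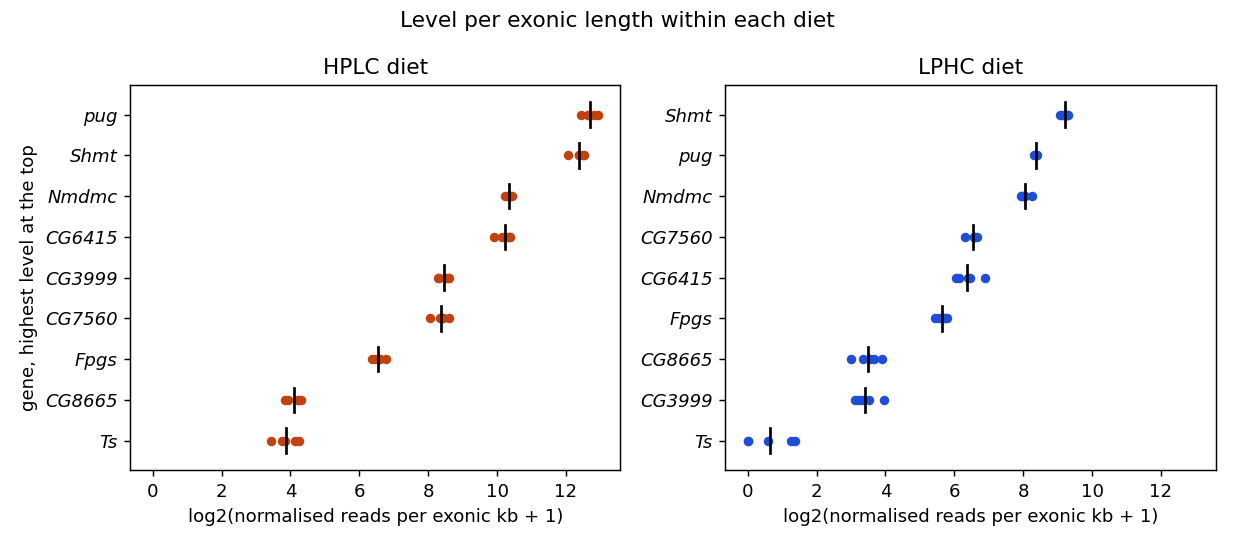
The 9 genes by level within each diet, HPLC left and LPHC right, as log2(normalised reads per exonic kilobase + 1) on the horizontal axis, with 1 point per library and a bar at the mean. CG3999 lies next to CG7560 on HPLC and next to CG8665 on LPHC, and pug and Shmt exchange the top places.

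Enzymes that make or use the same intermediates were examined as a list of 23 partner genes, drawn up with earlier results of these data known. Of these, 21 were in the table and 20 were tested, and 14 were called higher and 1 lower (limma, adjusted over all genes), beside backgrounds of 22.1% and 18.9%. The median log2 fold change of the tested partners was 1.17, against −0.03 over all tested genes.

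Serine synthesis, which feeds Shmt, was higher throughout. CG11899, the counterpart of human phosphoserine aminotransferase, averaged 4604 ± 644 on HPLC and 879 ± 46.0 on LPHC, which is 2.38 ± 0.08 on the log2 scale (SE, limma adjusted p = 3.01e-13). CG6287, the counterpart of human phosphoglycerate dehydrogenase, and aay, the phosphoserine phosphatase, were also called higher (1.47 and 1.02). All 3 had every HPLC library above every LPHC library, as did 15.2% of all genes in the table.

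Of 8 genes that handle glycine and methyl groups, 6 were called higher and 1 lower. Gnmt, which methylates glycine with S-adenosylmethionine, averaged 4471 ± 550 on HPLC and 105 ± 11.3 on LPHC (limma adjusted p = 2.03e-17), and Sardh, which returns the sarcosine to glycine, averaged 2538 ± 359 on HPLC and 88.8 ± 8.91 on LPHC (2.25e-16). Spat, an aminotransferase acting on glyoxylate and serine, was 9.17-fold and Ahcy, which clears S-adenosylhomocysteine, 4.04-fold higher. Sam-S, which makes S-adenosylmethionine, differed by 0.51 ± 0.06 on the log2 scale (SE, limma adjusted p = 2.09e-06). CG10621 was 15.1-fold higher, while its neighbour CG10623, named Bhmt in the RefSeq gene table, averaged 687 ± 50.8 on HPLC and 905 ± 32.0 on LPHC and was called lower (log2 fold change −0.40 ± 0.06 SE, limma adjusted p = 3.52e-05), a call lost under neuron-marker scaling (0.0694, the highest of the alternatives, which began at 1.15e-08). Cbs, which diverts homocysteine to cysteine, was not called (limma adjusted p = 0.0651, from 0.0133 to 0.630 over the alternatives). It was called higher with TMM (0.0487), under neuron-marker scaling (0.0133) and without LPHC replicate 1 (0.0165).

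Both purine enzymes that consume formyl folate were higher. Gart averaged 20883 ± 3876 on HPLC and 1289 ± 65.8 on LPHC (log2 fold change 4.00 ± 0.10 SE, limma adjusted p = 1.05e-14), and CG11089, listed with the name atic in the RefSeq gene table, averaged 9573 ± 909 on HPLC and 1916 ± 116 on LPHC (2.32 ± 0.07, 3.41e-14). Of the 3 deoxynucleotide genes tested, 1 was called higher. RnrS, the small subunit of ribonucleotide reductase, was 2.09-fold higher (limma adjusted p = 2.93e-07). RnrL, its large subunit, stood at 200.2 ± 26.5 on HPLC and 165 ± 16.6 on LPHC (limma adjusted p = 0.0524, from 0.0164 to 0.419 over the alternatives). RnrL was called higher with TMM (0.0440), neuron-marker scaling (0.0164), edgeR (0.0459) and DESeq2 (0.0386), and without HPLC replicate 3 (0.0204) or HPLC replicate 4 (0.0405). dnk, a deoxynucleoside kinase, was not called (limma adjusted p = 0.694).

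**Figure D3:**
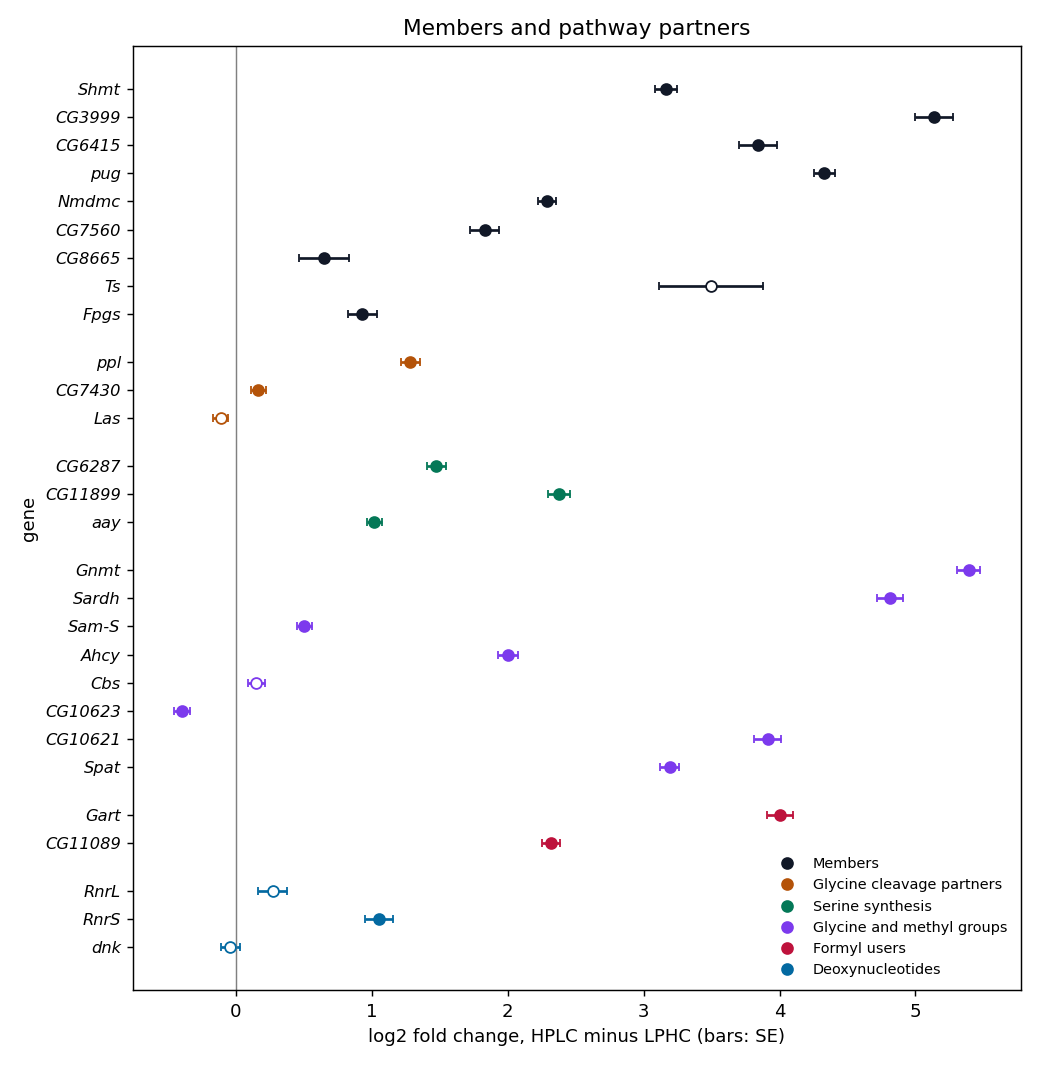
Log2 fold change (HPLC minus LPHC, horizontal axis) with its SE for the 9 genes at the top and the partner genes named in the text in groups below; open circles were not called, or for Ts not tested. Values run from −0.40 for CG10623 to 5.39 for Gnmt, and the serine and formyl groups lie wholly right of 0.

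Differences between libraries of the same diet were also described, in the same libraries in which the genes were chosen by their diet difference. HPLC replicate 2 was the lowest HPLC library for 6 of the 8 tested genes and for 12 of the 20 tested partners, against 16.8% of all tested genes. Over the 8 tested genes its median deviation from the diet's mean was −0.22 on the log2 scale. Its summed fat body markers, 156360 normalised reads, were also the lowest among the HPLC libraries. The next lowest sum, 161460 in HPLC replicate 3, came with a median deviation of −0.001. The lowest LPHC sum, 32027 in LPHC replicate 1, came with −0.03. The part of these markers in the values of the genes was not tested. After each diet's mean was removed, pug and Shmt had a Pearson correlation of 0.77 over the 10 libraries, Nmdmc and CG6415 of 0.76, and CG6415 and CG8665 of −0.70. The mean over all 28 pairs was 0.16, and without HPLC replicate 2 it was 0.01 and the value for pug and Shmt 0.40. These are descriptions, since the libraries share depth and scaling.

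**Figure D4:**
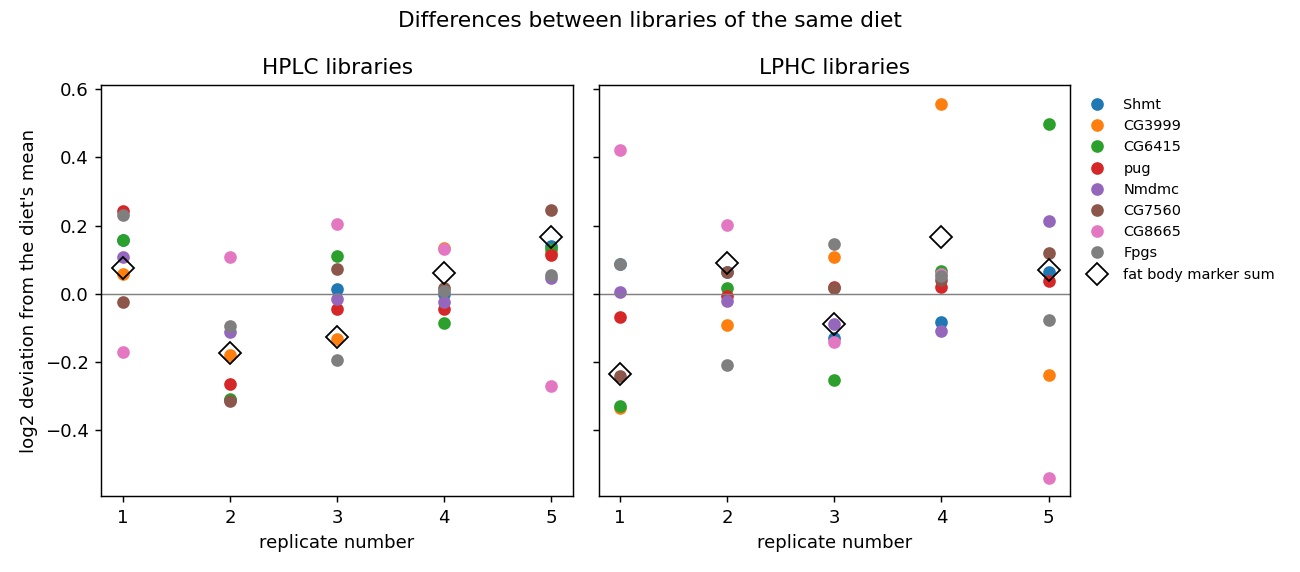
Deviation of each of the 8 tested genes (coloured points) and of the fat body marker sum (open diamonds) from the mean of its diet, on the log2 scale, by replicate number in HPLC (left) and LPHC (right). In HPLC replicate 2 the points of 7 of 8 genes lie below 0, with a median of −0.22, and the spread on LPHC is widest for CG3999, CG6415 and CG8665.

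The fat body markers rose on HPLC beside the folate genes, by a ratio of 4.67 for their sum, of which apolpp, FASN1 and Tps1 were the most abundant members. Single markers differed widely in ratio. Lip4, a lipase, was 1.34-fold higher on HPLC, apolpp, the lipoprotein precursor, 4.87-fold and Lsp1beta, a storage protein, 87.2-fold. Lsp2, another storage protein, averaged 9177 normalised reads on HPLC and 3.25 on LPHC, while Fbp1, near 0, averaged 7.93 on HPLC and 11.4 on LPHC. The sum therefore does not stand for a common ratio. Divided by the marker sum of the same library, the ratio of HPLC to LPHC was 7.62 for CG3999, 4.49 for Ts, 4.30 for pug, 3.07 for CG6415, 1.91 for Shmt and 1.04 for Nmdmc. The direction turned for the other 3 genes, with ratios of 0.767 for CG7560, 0.404 for Fpgs and 0.332 for CG8665. For Ts the divided LPHC values had a mean of 2.39e-05 and an SD of 2.45e-05 and rested on 5 reads, so its ratio is poorly measured. Haemocyte markers (15 in the table, none at 0) summed to 49233 to 56629 on HPLC and 20919 to 41507 on LPHC (adjusted p = 0.0111 by exact permutation). Of these 15, 8 were called higher and 7 were not called, beside 22.1% of all tested genes called higher. Among them Glt averaged 10028 on HPLC and 911 on LPHC, so the haemocyte sum does not stand for the whole list. Of 7 listed gut markers 4, led by Amy-d, were in the table. These 4 summed to 3337 to 4114 on HPLC and 519 to 729 on LPHC (0.0111 by the same test). The listed alphaTry, betaTry and Jon99Ciii were absent, so the sum stands for only part of the gut list. Glia markers summed to 71387 to 84769 on HPLC and 64501 to 71383 on LPHC (0.0111). Of the 11 glia markers 5 were called higher and 6 were not called, so their sum does not stand for the whole list. The photoreceptor sum was lower, at 2468155 to 3099936 on HPLC and 3202631 to 3541388 on LPHC (0.0111). Of the 15 photoreceptor markers 4 were called lower and 11 were not called, beside 18.9% of all tested genes called lower. The muscle sum was also lower, at 156352 to 166560 on HPLC and 162160 to 192819 on LPHC (0.0185). Of the 12 muscle markers tested 7 were called lower and 5 were not called, so neither sum stands for its whole list. The sum of neuron markers was not called (ratio 0.898, adjusted p = 0.0714). Since the marker lists were chosen with earlier results of these data known, these p-values are a description. Whether RNA from these tissues took part in the diet difference of the folate genes was not tested.

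Among 8823 genes with a mean of at least 50 normalised reads, those with the profile most like Shmt over the 10 libraries were Hn, CG9547, CG3902, CG9664 and Nepl11 (Pearson correlations from 0.999 to 1.00). For Nmdmc they were v, Cyp6a8, Prat2, Hn and CG4408, and for pug they were Spat, Amy-d, Prat2, CG9547 and tobi. Such values are dominated by the distance between the diets. With each diet's mean removed, the same pairs are given as a description only, since the genes were picked on these libraries, within-diet differences included. The correlation was then 0.95 for Shmt with Hn, the phenylalanine hydroxylase, 0.94 for Nmdmc with v, the tryptophan dioxygenase, and 0.90 for pug with Spat.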

How the data were processed

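The authors deposited a table of normalised read counts, a signal per gene that is never negative. Reads were aligned with HISAT2, per the submitters' processing notes. What counted the reads, with which strand setting, annotation and build, is not given in the sources used here, and neither coordinates nor sequences are printed. Every value was a whole multiple of a constant per library (100% of values, tolerance 1e-06), which gave the reads. limma-trend 3.58.1 (R 4.3.3, robust) was run on log2(value + 1) over 9896 genes whose mean reached 10, two-sided, Benjamini-Hochberg adjusted over all, threshold 0.05. edgeR 4.0.16 and DESeq2 1.42.0 on the recovered reads were alternatives. In data simulated on the 9896 genes, 200 were changed and every gene had the same dispersion. There limma recovered 96% of 2-fold and 100% of 4-fold changes, with 12 false calls. The real contrast called 40.9% of genes, so these rates may not carry over to it. Exonic lengths and overlaps came from Ensembl release 115.

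The genes, partner and marker lists were chosen with earlier results of these data known. Named genes were all members, partners, the 5 most similar genes of Shmt, Nmdmc and pug, leading or defining markers, and absent gut markers. Fbp1, Fbp2, Lsp1gamma and elav were named after their values were seen. Partners Mtfmt and dUTPase, and promoter motifs, are not analysed here, and 1 tested partner, included in the list's counts, is not reported here. CG8026 (mean 5.33) was below the minimum. Replicate libraries differed by more than sampling noise in every pair (chi-square divided by its degrees of freedom, 5.06 to 50.5).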

Additional observations from a re-analysis of the deposited data

Results flagged for a closer look

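In 60 groups of 5 libraries (9 members and 21 partners in each diet) the highest and lowest library were compared with the others, and 2 groups had a library far from the rest, where chance gives about 1 in 20. CG11089 had 2117 normalised reads in LPHC replicate 1, and the next LPHC library had 1899. CG8026 had 15.3 normalised reads in HPLC replicate 1, and the next HPLC library had 7.37. None of the 9 members was among them.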

How the results depend on the processing

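All 8 tested members stayed called higher under every alternative fit in which they passed the minimum. Of them 7 passed a mean of at least 50, and Ts joined with no minimum or without an LPHC library. Without an LPHC library Ts reached the minimum through its HPLC reads. Since the diet contrast in these libraries chose the genes, nothing is read from these calls. Over all genes 1684 to 2847 were called higher under the alternatives. The median log2 fold change of the members was 2.73. It became 3.16 with no minimum or a mean of at least 50, 2.61 under upper-quartile and 2.88 under neuron-marker scaling. Without each library it was 2.69 to 3.19, where the number of members tested differed. Divided by the fat body marker sum, an alternative chosen after seeing the data, CG7560 turned to −0.38, CG8665 to −1.59 and Fpgs to −1.31 on the log2 scale. Partners called higher ran from 13 to 17; partners called lower were 2 under upper-quartile scaling and quantile normalization, 0 under neuron-marker scaling, and 1 to 2 without each library (2 without HPLC replicate 3). Their median of 1.17 became 1.27 with no minimum, 1.06 under upper-quartile scaling, 1.05 under quantile normalization, 1.32 under neuron-marker scaling and 1.13 to 1.22 without each library. Over all genes, 1866 were called lower, against 3832 under upper-quartile scaling, 3897 under quantile normalization and 245 under neuron-marker scaling (higher: 2185, against 1684, 1684 and 2847); the median of −0.03 became −0.013 with TMM, −0.14 under upper-quartile scaling and under quantile normalization, and 0.12 under neuron-marker scaling. The mean within-diet correlation ran from 0.01 (without HPLC replicate 2) to 0.23. The neuron marker sum (log2 difference −0.15, adjusted p = 0.0714) was called lower under upper-quartile scaling (−0.26, 0.00926). No pairing by replicate number was seen: same-number correlations lay between −0.02 and 0.01, and no HPLC library correlated best with the LPHC library of its number. Such values cannot exclude a pairing, and the labels do not give one. With the replicate block 2152 genes were called higher and 1702 lower, CG7430 lost its call (0.0575) and RnrL was called higher (0.0490). Other causes were not tested. On LPHC few reads lay behind Ts (5 in all), CG3999 (170) and CG8665 (218).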
